A study of Mus musculus with 9 samples.

Results

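The Notch pathway was described here through 9 genes of the count table: the receptors Notch1, Notch2 and Notch3, the ligands Dll1, Jag1 and Dner, and the target genes Hes1, Hes5 and Hey1. They were chosen by name, with earlier results of these data known, and each of the 9 names matched exactly 1 of the 49315 gene identifiers. The libraries came from a mouse model of mitochondria transfer to glioblastoma (GBM). SB28 cells, a mouse GBM line that carries GFP, were co-cultured for 2 days with primary neonatal astrocytes of C57BL6 mice whose mitochondria carry the fluorophore mKate2 (mito::mKate2). The medium held 2 growth factors, EGF and FGF, with low serum, and no drug was given. After sorting, 3 libraries each were made from astrocytes, from SB28 cells with astrocyte mitochondria (mKate2+) and from SB28 cells without (mKate2-). Both SB28 groups had therefore shared their culture with astrocytes, so neither was a tumor cell grown alone. SB28 is 1 cell line. By the study's methods all 3 groups were sorted from 3 distinct co-cultures, and the labels do not say whether equal replicate numbers mark 1 co-culture. The libraries held 24454561 to 39287841 counts assigned to genes.

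Notch receptors are single-pass membrane proteins that are activated by Delta-like and Jagged ligands on a neighboring cell. Ligand binding lets ADAM proteases and then γ-secretase cut the receptor, and the freed intracellular domain joins the DNA-binding protein RBPJ and Mastermind-like co-activators at target genes such as Hes1, Hes5 and Hey1, which encode transcriptional repressors. In the brain the pathway is best known for keeping neural stem cells undifferentiated and for its part in the formation of astrocytes.

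In GRCm38, Notch1 lies on chromosome 2 from 26457903 to 26516663 on the minus strand and Jag1 on the same chromosome and strand from 137081456 to 137116644. Notch2 lies on chromosome 3 from 98013527 to 98150361 on the plus strand, and Hey1 on chromosome 3 from 8663359 to 8667256 on the minus strand. Notch3 (32120820 to 32166852) and Dll1 (15367354 to 15376872) are both on the minus strand of chromosome 17. Hes1 lies on the plus strand of chromosome 16 from 30064384 to 30067796, Hes5 on the plus strand of chromosome 4 from 154960923 to 154962371, and Dner on the minus strand of chromosome 1 from 84369839 to 84696221. All 9 are annotated as protein-coding.

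The 250 bases before the start of Hes5, Notch3 and Dner are shown because these genes had the lowest levels in SB28 cells relative to astrocytes. The sequences are RefSeq's for GRCm38.p6 and read 5′ to 3′ along the gene's own strand. Capitals mark GTGGGAA, a sequence that RBPJ is known to bind, or its reverse complement TTCCCAC.
Hes5 (chr4:154960673-154960922, plus strand): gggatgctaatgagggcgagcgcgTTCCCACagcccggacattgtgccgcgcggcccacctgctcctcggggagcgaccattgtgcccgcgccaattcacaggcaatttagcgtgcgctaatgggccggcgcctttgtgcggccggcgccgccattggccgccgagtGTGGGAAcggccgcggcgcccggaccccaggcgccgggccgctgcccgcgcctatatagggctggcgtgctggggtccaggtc
Notch3 (chr17:32166891-32167140, minus strand): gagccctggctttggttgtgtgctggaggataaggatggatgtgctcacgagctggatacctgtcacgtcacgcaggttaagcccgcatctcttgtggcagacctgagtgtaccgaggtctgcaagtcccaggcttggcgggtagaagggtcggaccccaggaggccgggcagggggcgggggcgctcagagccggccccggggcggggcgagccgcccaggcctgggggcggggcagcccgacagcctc
Dner (chr1:84696222-84696471, minus strand): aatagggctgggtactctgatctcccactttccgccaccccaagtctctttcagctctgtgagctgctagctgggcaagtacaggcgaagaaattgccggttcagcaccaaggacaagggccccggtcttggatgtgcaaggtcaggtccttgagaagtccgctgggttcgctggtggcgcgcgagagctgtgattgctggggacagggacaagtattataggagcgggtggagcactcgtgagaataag
The Hes5 window held 2 matches, on opposite strands, that began 226 and 83 bases before the start of the gene. The windows of Notch3 and Dner held none, and nor did those of Notch1, Notch2, Jag1 or Dll1, whose 2 annotated starts were both searched. The windows of Hes1 and Hey1 were not analysed here. Of 32851 windows of this length, 5.42% held the letters on either strand and 0.161% held them at least 2 times. GC content was 71.6% in the Hes5 window, 68.8% in that of Notch3 and 56.8% in that of Dner, against a median of 52.4% over all windows.

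The astrocyte libraries were first checked against their label. Slc1a3 (a glutamate transporter), Aldh1l1 and Apoe, which astrocytes express strongly, were at 173 to 236, 111 to 172 and 260.3 to 270.2 counts per 1000000 counts of the library (CPM) in the 3 astrocyte libraries. Gfap, the intermediate filament of mature astrocytes, was at only 3.42 to 19.4 CPM, S100b at 0.327 to 2.16 CPM, and Ntsr2 was at 0 in 2 of the 3. Olig1, Olig2 and Sox2, transcription factors of progenitors, were at 241 to 541, 155 to 268 and 303 to 513 CPM. Sox10, which marks committed oligodendrocyte cells, did not exceed 0.0611 CPM. Of the 8 oligodendrocyte lineage markers only 2 stayed under 1 CPM in every astrocyte library. Pdgfra and Cspg4 of that list were not among these 2, with mean normalized counts of 471 and 419.5 over the astrocyte and mKate2- libraries. Of the 8 microglial markers, 6 stayed under 1 CPM in every astrocyte library. The 8 summed to 40.7, 28.9 and 31.4 CPM in astrocytes and 47.6 to 61.2 CPM in SB28 cells. Without Tmem119, the most abundant, the sums were 1.64, 4.07 and 0.911 CPM in astrocytes and at most 0.294 CPM in SB28 cells. In SB28 cells the astrocyte markers were left to very different extents. The mKate2- libraries held 0.757% of the astrocyte mean of Slc1a3, 1.08% of that of Apoe, 1.58% of Aldoc, 4.15% of Slc4a4, 5.15% of Aldh1l1, 30.3% of Glul and 52.6% of Sox9. The mKate2+ libraries held 0.428%, 0.932%, 1.34%, 4.33%, 5.03%, 32.7% and 49.1% of the same genes in that order. Summed over the 14 astrocyte markers the level was 1172, 1197 and 1909 CPM in astrocytes, 375, 452 and 415 CPM in mKate2- cells and 398, 443 and 419.5 CPM in mKate2+ cells, 5 of the 14 stayed under 1 CPM in all 6 SB28 libraries, and Ntsr2 was at 0 in them. Gja1, the most abundant gene of the list and a gap junction protein that many cells make, was not lower in them, with 240.8 to 284.2 CPM in the 6 SB28 libraries and 168 to 216 CPM in astrocytes. The 6 fibroblast and leptomeningeal markers summed to 1408, 1517 and 1128 CPM in astrocytes and 547 to 811 CPM in SB28 cells. Without Col1a2, the most abundant, the sums were 385, 407 and 289 CPM in astrocytes and 161 to 239 CPM in SB28 cells. By gene, 4 of the 6 had their highest astrocyte value in replicate 3, and 3 exceeded 2 times the mean of the other 2 astrocyte libraries there. The part of these markers in the Notch values was not tested.

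Astrocyte replicate 3 stood apart from the other astrocyte libraries. Slc1a2, Aqp4, Fgfr3 and Aldoc, markers of more mature astrocytes, were at 56.8, 59.7, 63.1 and 362 CPM in it, against at most 11.3, 6.82, 9.72 and 55.6 CPM in replicates 1 and 2, and 7 of the 14 astrocyte markers exceeded 2 times the mean of the other 2 libraries. Flt1, a vascular endothelial growth factor receptor, reached 192 CPM there against 5.64 and 12.4 CPM, and the sum of the 7 endothelial markers was 199 CPM against 7.57 and 14.4 CPM. Without Flt1 the sum was 7.09 CPM against 1.92 and 1.99 CPM, and 3 of the 7 exceeded 2 times the mean of the other 2 libraries. Among the genes that define endothelial cells, Cdh5 was at 5.64 CPM against 0.654 and 0.367 CPM, Kdr at 0.854 CPM against 0.0818 and 0.367 CPM, Pecam1 at 0.455 CPM against 1.02 and 0.703 CPM, and Cldn5 and Tie1 at 0 in all 3. Foxj1, a regulator of motile cilia, was at 75.9 CPM against 8.91 and 6.73 CPM. All 9 Notch genes had their highest astrocyte value in this library. The filter for all 9 libraries together (more than 1 CPM in 2 or more of them) kept 13450 genes, among them 8 of the 9 Notch genes, and 38.9% of the 13450 had their highest astrocyte value there. The part of these other genes' shift in the Notch values was not tested, and results that rest on this library are given without it as well. Among the SB28 libraries mKate2+ replicate 2 stood apart, with a chi-square of the counts per degree of freedom of 148 and 134 against replicates 1 and 3, which differed from each other by 17.3, whereas the mKate2- libraries differed by 32.1 to 56.0.

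The first question was how the 3 receptors were distributed between tumor cells and astrocytes. Notch1 and Notch3 were far lower in SB28 cells than in astrocytes, by 11.5 and 54.5 times in the mKate2- group, whereas Notch2 was at a similar level in all 3 groups. Notch1, the receptor required in most developing tissues, was at 216, 273 and 382 CPM in astrocytes (290.3 ± 84.6, SD, n = 3), at 21.2, 23.3 and 31.4 CPM in mKate2- SB28 cells (25.3 ± 5.40, n = 3) and at 24.8, 14.5 and 29.8 CPM in mKate2+ SB28 cells (23.0 ± 7.80, n = 3). Every SB28 library lay below every astrocyte library. Its log2 fold change was -3.50 ± 0.24 (SE) in mKate2- cells and -3.59 ± 0.31 in mKate2+ cells against astrocytes (edgeR quasi-likelihood test, adjusted p = 2.29e-05 and 7.53e-05).

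Notch3, the receptor known from vascular smooth muscle and pericytes, was at 75.3, 94.7 and 166 CPM in astrocytes, at 1.43, 2.15 and 2.58 CPM in mKate2- cells and at 1.89, 1.53 and 1.61 CPM in mKate2+ cells. The groups did not come close to overlapping, and the log2 fold changes were -5.74 ± 0.37 and -5.98 ± 0.34 (edgeR, adjusted p = 1.68e-05 and 1.46e-05). The remaining Notch3 signal was 1.83% of the astrocyte mean in mKate2- and 1.49% in mKate2+ cells, above the percentages left of Slc1a3, Apoe and Aldoc and below those of Slc4a4, Aldh1l1, Glul and Sox9 given above. Whether astrocyte RNA makes up part of it was not tested. The 7 mural cell markers summed to 88.6, 77.1 and 100.3 CPM in astrocytes and 47.0 to 63.7 CPM in SB28 cells. Without Pdgfrb the sum was 27.7, 19.4 and 42.1 CPM in astrocytes and 2.40 to 4.82 CPM in SB28 cells. This sum included Cspg4, also a marker of the oligodendrocyte lineage, with log2 fold changes of -2.42 and -2.71 against astrocytes. Vtn, Rgs5, Abcc9 and Kcnj8, also part of it, did not exceed 0.736 CPM in astrocyte replicates 1 and 2. The part of these markers in the Notch3 difference was not tested. Pdgfrb, the most abundant gene of that list, was at 57.7 to 60.9 CPM in astrocytes and 42.2 to 59.9 CPM in SB28 cells. In astrocyte replicate 3, where Notch3 was also highest, 4 of the 7 exceeded 2 times the mean of the other 2 astrocyte libraries, namely Vtn (14.1 CPM against 0.0409 and 0), Rgs5 (2.73 against 0.736 and 0.0917), Abcc9 (1.88 against 0.0409 and 0.0306) and Kcnj8 (0.797 against 0 and 0.0306). Their part in the Notch3 value of that library was not tested.

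Notch2, a receptor expressed in glia and in many tumors, was at 73.4, 108 and 141 CPM in astrocytes, at 119.8, 132 and 138 CPM in mKate2- cells and at 132, 113 and 144 CPM in mKate2+ cells. The ranges of all 3 groups overlapped, and the astrocytes were more spread (SD of 34.0 CPM) than mKate2- cells (9.27 CPM) or mKate2+ cells (15.6 CPM). The log2 fold changes of 0.29 (95% interval -0.18 to 0.77) and 0.35 (-0.17 to 0.86) did not pass the test (edgeR, adjusted p = 0.244 and 0.205). Without astrocyte replicate 3 they were 0.53 and 0.57, with an adjusted p of 0.0182 and 0.0312 in edgeR's test and still under the threshold of 1 for size.

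**Figure D1:**
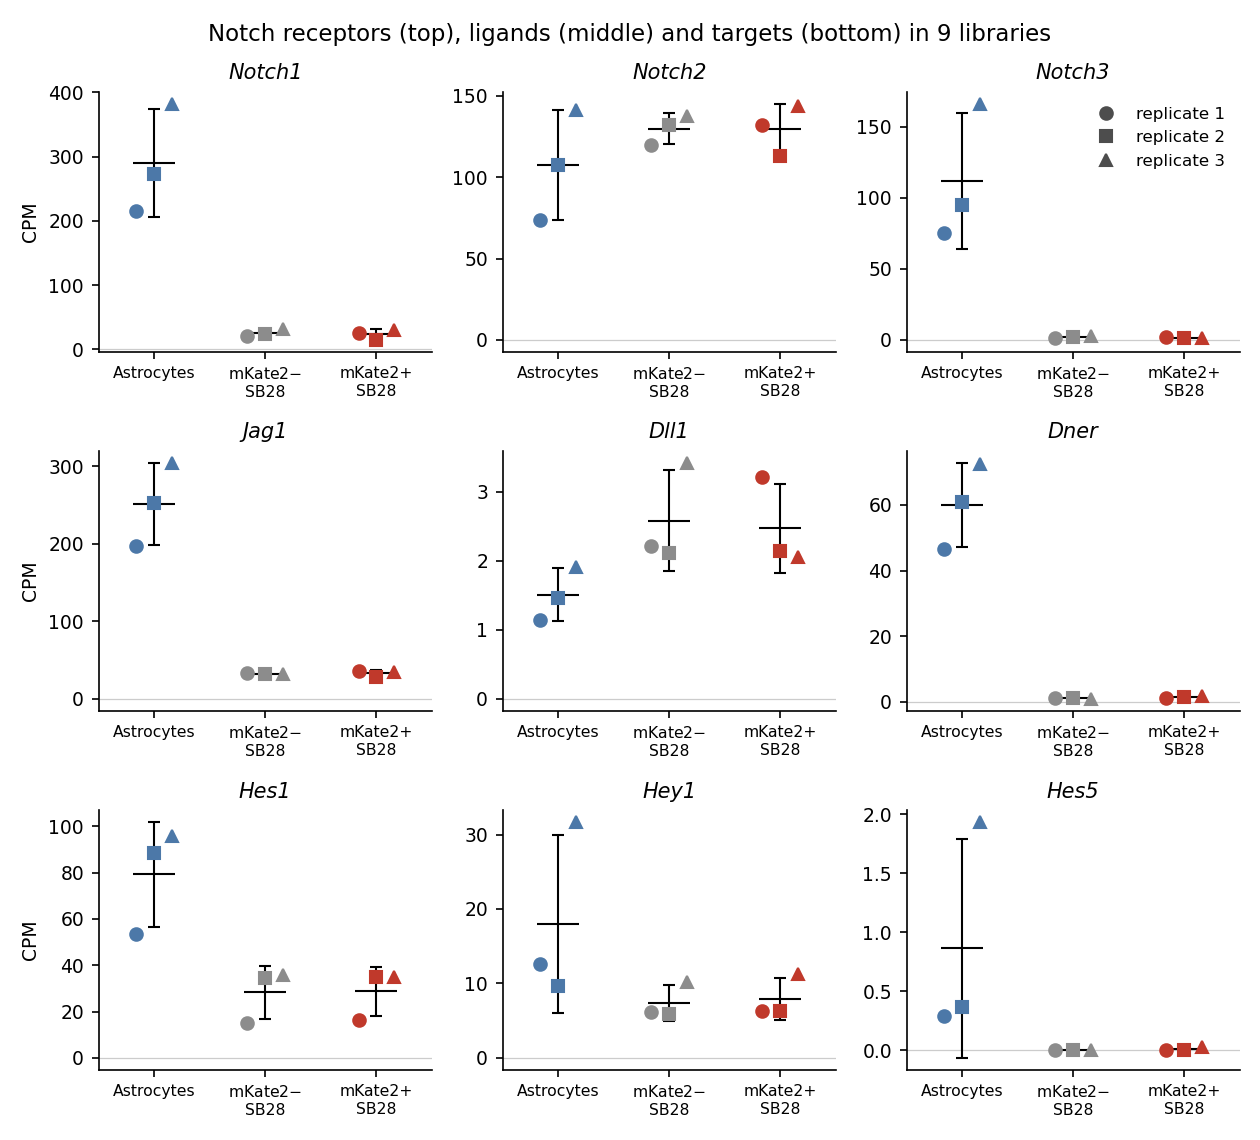
CPM (y axis, linear, a separate scale for each gene) of the 9 Notch genes in astrocytes, mKate2- and mKate2+ SB28 cells. Symbols are single libraries by replicate number, and the black bars are mean ± SD of 3. Notch1, Notch3, Jag1 and Dner sit near the bottom of their axes in all 6 SB28 libraries, Notch2 and Dll1 do not, and the triangle of astrocyte replicate 3 is the highest astrocyte point in every panel.

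The receptors were then compared per exonic length, as CPM divided by the exonic length in kilobases (RPKM), since CPM favors long transcripts. In astrocytes Notch1 stood at 20.4 ± 5.95 RPKM, Notch3 at 13.8 ± 5.91 and Notch2 at 9.97 ± 3.15, and Notch1 made up 46.0% ± 1.94 of the RPKM summed over the 4 Notch receptors. In SB28 cells the order was different. Notch2 stood at 12.1 ± 0.860 RPKM in mKate2- and 12.01 ± 1.45 RPKM in mKate2+ cells and made up 85.3% ± 1.80 and 86.6% ± 2.13 of the sum, with Notch1 at 12.5% ± 1.62 and 11.4% ± 2.44 and Notch3 at 1.77% ± 0.358 and 1.503% ± 0.204. The Notch2 share was 21.4% to 24.03% in the astrocyte libraries and 83.2% to 89.0% in the SB28 libraries, without overlap. The summed receptor level was 44.8 ± 15.0 RPKM in astrocytes, 14.2 ± 1.26 in mKate2- cells and 13.9 ± 2.00 in mKate2+ cells.

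**Figure D2:**
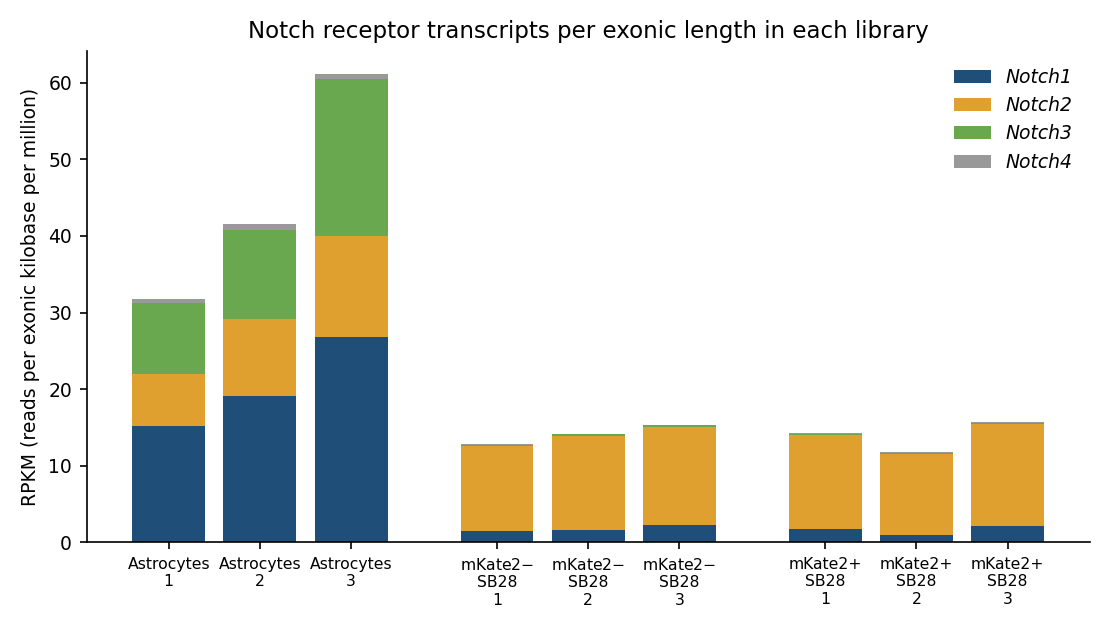
RPKM of Notch1, Notch2, Notch3 and Notch4, stacked, in each of the 9 libraries (bars start at 0, x axis gives group and replicate). The astrocyte bars hold Notch1, Notch2 and Notch3 visibly, whereas the 6 SB28 bars are almost all Notch2, whose own height is alike in the groups.

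Among the ligands, Jag1 and Dner were high in astrocytes and low in SB28 cells. Jag1, the Jagged ligand that is found on glia, was at 197, 252 and 304 CPM in astrocytes, at 33.6, 32.6 and 31.6 CPM in mKate2- cells and at 35.7, 28.7 and 34.9 CPM in mKate2+ cells. The 6 SB28 values lay close together and well below the lowest astrocyte. Its log2 fold changes were -2.93 ± 0.16 and -2.85 ± 0.18 (edgeR, adjusted p = 8.83e-06 and 1.91e-05), a level 7.70 and 7.58 times lower.

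Dner, an EGF-repeat membrane protein that acts as a non-canonical Notch ligand in neurons and glia, was at 46.6, 60.9 and 72.3 CPM in astrocytes, at 1.10, 1.31 and 0.905 CPM in mKate2- cells and at 1.28, 1.60 and 1.67 CPM in mKate2+ cells. These were 1.85% and 2.53% of the astrocyte mean, again a small remainder for which a part of astrocyte RNA was not tested. The log2 fold changes were -5.73 ± 0.23 and -5.22 ± 0.23 (edgeR, adjusted p = 4.48e-06 and 6.88e-06).

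Dll1, a Delta-like ligand, was scarce in every library. It was at 1.15, 1.47 and 1.91 CPM in astrocytes, at 2.21, 2.12 and 3.42 CPM in mKate2- cells and at 3.22, 2.14 and 2.05 CPM in mKate2+ cells. It was the only one of the 9 genes whose SB28 values all lay above all astrocyte values. The log2 fold changes of 0.79 (95% interval 0.002 to 1.57) and 0.78 (-0.01 to 1.57) did not pass after adjustment (edgeR, adjusted p = 0.0742 and 0.0815), and without astrocyte replicate 3 they were 0.98 and 0.96 (edgeR, adjusted p = 0.0438 and 0.0612).

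Of the 3 target genes, Hes1 was lower in both SB28 groups, Hey1 lay near the threshold in both, and Hes5 was near 0. In the direct comparison of mKate2+ with mKate2- cells the log2 fold change of Hey1 was 0.15 (95% interval -0.52 to 0.82, edgeR, unadjusted p = 0.615). The fitted differences of Hes1 and Hey1 were smaller than those of Notch1, Notch3, Jag1 and Dner. Hes1 was at 53.4, 88.4 and 95.9 CPM in astrocytes, at 15.2, 34.3 and 35.7 CPM in mKate2- cells and at 16.6, 34.8 and 35.0 CPM in mKate2+ cells. No SB28 library reached the lowest astrocyte. The log2 fold changes were -1.46 ± 0.34 and -1.37 ± 0.34 (edgeR, adjusted p = 0.00660 and 0.00928). With a trend on gene length removed they were -0.96 and -0.94, under the threshold of 1 for size, and both calls were lost. Replicate 1 was the lowest in every group, at 0.433 and 0.476 times the mean of the other 2 libraries in mKate2- and mKate2+ cells and at 0.580 times in astrocytes. Of the 13450 genes, 0.914% had replicate 1 below 0.6 times the mean of the other 2 in both SB28 groups.

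Hey1 was at 12.6, 9.69 and 31.7 CPM in astrocytes, at 6.11, 5.85 and 10.2 CPM in mKate2- cells and at 6.24, 6.36 and 11.2 CPM in mKate2+ cells. Replicate 3 was the highest in each group, and the SB28 libraries of that number were above the lowest astrocyte, so the groups overlapped. Of the 13450 genes, 1.57% had replicate 3 above 1.5 times the mean of the other 2 in both SB28 groups. Its log2 fold change of -1.27 ± 0.45 passed in mKate2- cells and that of -1.11 ± 0.46 did not in mKate2+ cells (edgeR, adjusted p = 0.0398 and 0.0710). In mKate2+ cells it did pass with DESeq2 (adjusted p = 0.0255), and in edgeR without the filter on low counts (adjusted p = 0.0422) and in a fit to all 9 libraries (adjusted p = 0.0456). With the replicate number as a block the log2 fold changes were -1.13 and -0.97 (edgeR, adjusted p = 0.00332 and 0.0127), the second under the threshold of 1 for size. Without astrocyte replicate 3 these were -0.59 and -0.45 (edgeR, adjusted p = 0.0945 and 0.251), and the call in mKate2- cells was also lost without mKate2- replicate 1 or replicate 2 (edgeR, adjusted p = 0.124 and 0.125).

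Hes5, whose promoter is printed above, was almost absent. It had 7, 12 and 68 counts in the astrocyte libraries (0.286, 0.367 and 1.94 CPM), none in the 3 mKate2- libraries and 1 in the 3 mKate2+ libraries, in replicate 3. It fell under the filter on low counts and was tested only in the fits without that filter. Pooled over the libraries of a group, the level was at least 29.2-fold lower in mKate2- cells than in astrocytes, taking 3 counts in the group (0.0323 CPM) as the limit that a count of 0 allows. In mKate2+ cells it was 103-fold lower, with an exact 95% interval of 18.0 to 4124 that covers counting error only. Of the 87 astrocyte counts 68 came from replicate 3, and without it the level was at least 10.3-fold lower in mKate2- cells and 36.4-fold lower (5.79 to 1512) in mKate2+ cells.

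In sum over both comparisons with astrocytes, 8 of the 9 genes were tested. In mKate2- cells 6 of them were lower and 0 higher at an adjusted p under 0.05 and an absolute log2 fold change above 1, where 33.9% of the 13356 genes tested were called, 22.4% lower and 11.5% higher. In mKate2+ cells 5 were lower and 0 higher, where 35.0% of 13342 genes were called, 22.8% lower and 12.2% higher. The median log2 fold change of the 8 genes was -2.19 and -2.11, and that of all genes tested -0.04 and -0.02. The CPM ranges of SB28 cells and astrocytes did not overlap for 6 of the 8 genes in either comparison, against 70.9% and 66.9% of the 13450 genes. Both comparisons used the same 3 astrocyte libraries. Without astrocyte replicate 3, Notch1, Notch3, Jag1, Dner and Hes1 were called lower in both, with log2 fold changes of -5.61 (Notch3, mKate2+ cells) to -1.24 (Hes1, mKate2+ cells). Removing a trend of log2 CPM on gene length moved the median of all genes to 0.45 and 0.47. Under it Hes1 and Hey1 were not called in either comparison. Dll1 was then called higher in both, and Notch2 in mKate2+ cells. In bulk libraries, fewer cells that express a gene and less of its RNA per cell cannot be told apart.

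**Figure D3:**
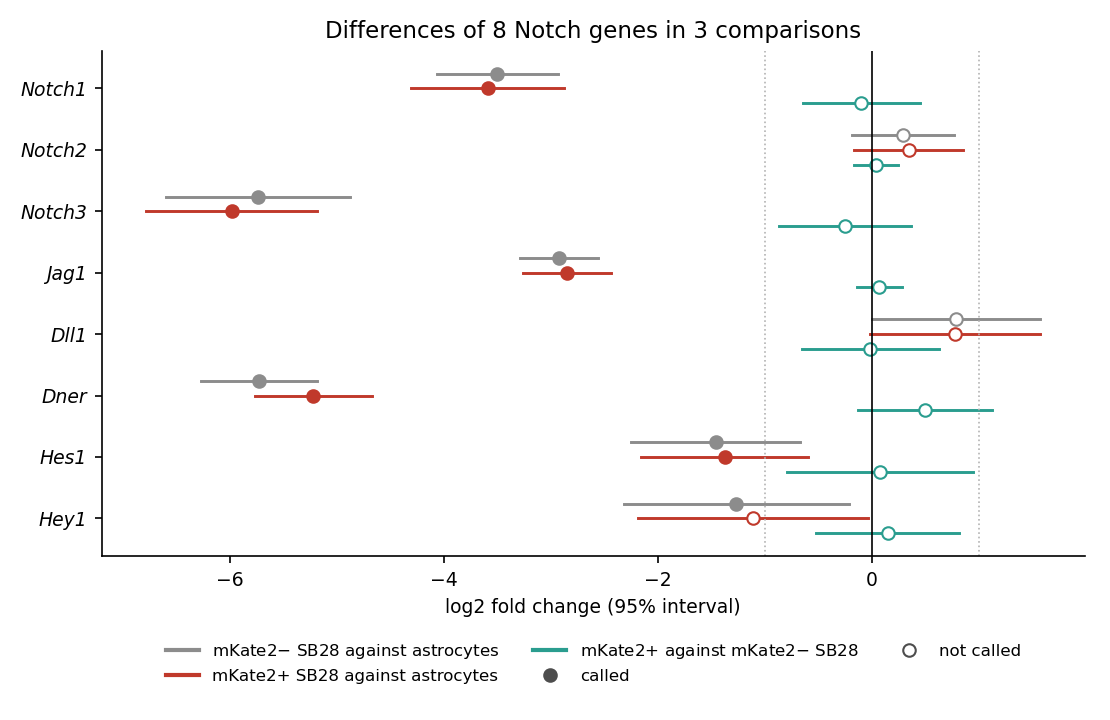
Log2 fold change (x axis) of the 8 tested Notch genes with its 95% interval, for mKate2- (gray) and mKate2+ (red) SB28 cells against astrocytes and for mKate2+ against mKate2- SB28 cells (green). Filled points passed the thresholds, and dotted lines mark a log2 fold change of -1 and 1. The gray and red points lie far left for Notch1, Notch3, Jag1 and Dner, and all 8 green intervals include 0.

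The comparison of mKate2+ with mKate2- cells addressed what differs in the transcripts of SB28 cells that hold astrocyte mitochondria. The study listed genes higher in mKate2+ cells by a fold change above 1.5, an unadjusted p below 0.05 and a count above 50. These limits were applied here in both directions, with the mean normalized count as the count, and none of the Notch genes passed. Dner, with a mean normalized count of 44.4, could not have passed. By these limits 0.363% of 11854 genes were called, 0.194% higher and 0.169% lower. The 23 higher and 20 lower genes became 62 and 21 with DESeq2 and 13 and 33 with the replicate number as a block. At an unadjusted p below 0.05 alone 0 of the 8 tested genes passed with edgeR, against 2.03% of all genes, and after adjustment no gene did. DESeq2 also called 0 of the 8. The CPM ranges of the 2 SB28 groups overlapped for all 8, whereas 8.89% of the 13450 genes had separate ranges. The median log2 fold change was 0.06 for the 8 genes and 0.003 for all genes tested. Without mKate2+ replicate 2 the 8 lay between -0.23 (Notch3) and 0.41 (Dner), with Jag1 at the lowest unadjusted p (0.188, edgeR).

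The size of difference that these libraries leave room for varied with the gene. Notch2, the main receptor of SB28 cells, had a log2 fold change of 0.04 with a 95% interval of -0.17 to 0.25, and Jag1 had 0.07 with an interval of -0.14 to 0.28. Hes1 and Hey1 were less well bounded, at 0.08 (-0.79 to 0.95) and 0.15 (-0.52 to 0.82), since their replicates were more spread. Notch1 had -0.10 (-0.65 to 0.45), Notch3 -0.25 (-0.86 to 0.37) and Dll1 -0.01 (-0.65 to 0.63). Dner had the largest difference, 0.50 ± 0.27 (-0.12 to 1.13, edgeR, unadjusted p = 0.102, adjusted p = 0.923), at a level of 0.905 to 1.67 CPM, and mKate2- replicate 2 lay above mKate2+ replicate 1.

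Per exonic length, the order of the 9 genes differed between the cell types. In astrocytes the means ran from Jag1 (43.1 ± 9.13 RPKM) and Hes1 (38.9 ± 11.1) through Notch1, Notch3, Dner (12.5 ± 2.69) and Notch2 to Hey1 (5.51 ± 3.66), and the libraries of each pair of neighbors in this order overlapped. Hes5 (0.633 ± 0.682) and Dll1 (0.357 ± 0.0906) lay below all of these and overlapped each other. In mKate2- cells Hes1 (13.9 ± 5.63 RPKM) and Notch2 led with overlapping values, ahead of Jag1 (5.59 ± 0.170). Hey1 (2.26 ± 0.751) and Notch1 (1.78 ± 0.379) came next and overlapped, then Dll1 (0.612 ± 0.172), and Notch3 (0.254 ± 0.0715) and Dner (0.231 ± 0.0423) overlapped and were last before Hes5 at 0. The order in mKate2+ cells was the same except that Dner (0.317 ± 0.0439) lay above Notch3 (0.207 ± 0.0233).

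Genes whose pattern over the 9 libraries was most like that of each Notch gene were sought among 13423 named genes. They were ranked by the correlation of log2(CPM + 1), with CPM scaled here by TMM factors. The ranking is a description only, since the 9 libraries share the difference between cell types. Notch3 was closest to Daam2, Kcnh7 and Ptprb (r = 0.9997, 0.9992 and 0.9991), Jag1 to Epas1, Arhgef6 and Nynrin (0.9993, 0.9992 and 0.999), Dner to Rflna, Dpyd and Foxred2 (0.9982, 0.9982 and 0.9977) and Notch1 to Ccdc80, Col4a6 and Ctnnb1 (0.9978, 0.9973 and 0.9969). For the genes with a smaller group difference the best values were lower. Notch2 was closest to Foxp1, Acvr2a and Map3k7 (0.9817, 0.9809 and 0.9658), Hey1 to Sh3rf1, Exd2 and Pcdh1 (0.979, 0.9745 and 0.9567), Hes1 to Spin1, Ypel2 and Gm17251 (0.9636, 0.9616 and 0.9571) and Dll1 to Rtkn2, Cracr2a and Ppm1d (0.9242, 0.922 and 0.9096).

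A wider list of 73 Notch pathway genes set the 9 in context. In mKate2- cells against astrocytes 3 of the 62 tested were higher and 14 lower (4.84% and 22.6%), and in mKate2+ cells 3 were higher and 16 lower (4.84% and 25.8%), where 11.5% and 12.2% of all genes tested were higher and 22.4% and 22.8% lower. The lower counts include Notch4, Dlk1, Jag2, Aph1c and Dtx1, which passed the filter only through the astrocytes. Lower was thus the only call open to them. The higher counts include Neurl1a, which passed it only through the SB28 libraries. The median log2 fold change of the list was -0.12 and -0.18. Rbpj, the DNA-binding protein of the pathway, was at 269 to 397 CPM in astrocytes and 224 to 332 CPM in SB28 cells and was not called, and 0 of the 7 tested Fringe and O-glycosylation enzymes, which modify the receptors' sugars, passed. Of the 10 proteases that cut the receptor and their subunits, Aph1c, a γ-secretase subunit, was lower, with fitted log2 fold changes of -2.73 and -2.43. It was at 0.919 to 0.963 RPKM in astrocytes and 0.120 to 0.180 RPKM in SB28 cells. Aph1c passed the filter only through the astrocyte libraries, so lower was the only call open to it.

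Among the other receptors and ligands of the list, Notch4, Dlk1 and Jag2 were lower in SB28 cells, Dlk2 was not called, and Dll3, Dll4 and Cntn1 fell under the filter. Notch4, known from endothelium, was at 3.48 to 5.41 CPM in astrocytes and at most 0.772 CPM in SB28 cells. Its mean was 8.36 times lower in mKate2- and 8.12 times lower in mKate2+ cells. It passed the filter only through the astrocyte libraries, so lower was the only call open to it. Dlk1, a Delta-like protein without the receptor-activating domain, was at 11.7 to 41.8 CPM in astrocytes and at most 1.46 CPM in SB28 cells. Jag2 was at 1.64 to 3.64 CPM in astrocytes and at most 0.638 CPM in SB28 cells. The fitted log2 fold changes were -4.71 and -4.99 for Dlk1 and -2.69 and -2.80 for Jag2. Against astrocytes both passed the filter only through the astrocyte libraries, so lower was the only call open to them. In ligand endocytosis the ubiquitin ligases Neurl1b (-2.86 and -2.83) and Mib2 (-1.08 and -1.20) were lower, and the Mib2 call in mKate2- cells was lost without astrocyte replicate 1 (-0.99). Neurl1a passed the filter only through the SB28 libraries, so higher was the only call open to it. It was higher (1.36 and 1.39) at 1.41 to 2.55 CPM in SB28 cells and 0.336 to 1.17 CPM in astrocytes, with adjusted p of 0.0417 and 0.0461 (edgeR). That call was lost without any 1 of several libraries, among them astrocyte replicate 1 (adjusted p = 0.0668 and 0.0809, edgeR) and with the replicate block (adjusted p = 0.0579 and 0.0759, edgeR).

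In the nucleus, the co-activator Maml2 was lower (-2.38 ± 0.21 and -2.79 ± 0.20) and the acetyltransferase Kat2a higher (1.09 ± 0.12 and 1.13 ± 0.12), and the other 7 of 9 genes of that role were not called. Of 14 co-repressors, 3 were lower in mKate2- and 5 in mKate2+ cells (21.4% and 35.7%, against the 22.4% and 22.8% of all genes), led by Fhl1 (-3.74 and -3.64), a LIM protein with a known RBPJ-binding isoform, and Tle2 (-2.32 and -2.80), a Groucho family co-repressor. Tle4, 1 of the 5, lay at the threshold for size in mKate2+ cells, at -1.03, and was not called without the filter (-0.97) or without astrocyte replicate 2 (-0.94), astrocyte replicate 3 (-0.96) or mKate2+ replicate 2 (-0.98). In mKate2- cells, at -0.97, it was called without astrocyte replicate 1 (-1.15) or mKate2- replicate 3 (-1.05). Nrarp, itself a Notch target and an inhibitor of the pathway, was the inhibitor that was higher in SB28 cells. It was at 8.02, 9.45 and 7.57 CPM in mKate2- and 11.2, 6.13 and 7.29 CPM in mKate2+ cells, above the 1.47, 2.32 and 4.92 CPM of astrocytes. Its log2 fold changes were 1.54 ± 0.41 and 1.56 ± 0.46 (edgeR, adjusted p = 0.0128 and 0.0195), and the second was lost without astrocyte replicate 2 or mKate2+ replicate 1 (edgeR, adjusted p = 0.0674 and 0.0681). Of the 11 tested inhibitors and turnover genes 3 were lower in each group, namely the Deltex genes Dtx4 (-2.93 and -3.04), Dtx3 (-1.81 and -1.84) and Dtx1. The Deltex genes Dtx2 (0.06 and 0.24) and Dtx3l (-0.44 and -0.59) were also tested and were not called. Dtx1, which passed the filter only through the astrocytes, had 60, 64 and 425 counts in the astrocyte libraries, 4 in mKate2- and 1 in mKate2+ cells, each in replicate 3. Pooled over the libraries of a group its level was 138-fold lower in mKate2- cells (exact 95% interval 53.7 to 509) and 651-fold lower in mKate2+ cells (116 to 25776), and without astrocyte replicate 3 these were 50.4-fold (19.2 to 188) and 238-fold (41.9 to 9458).

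**Figure D4:**
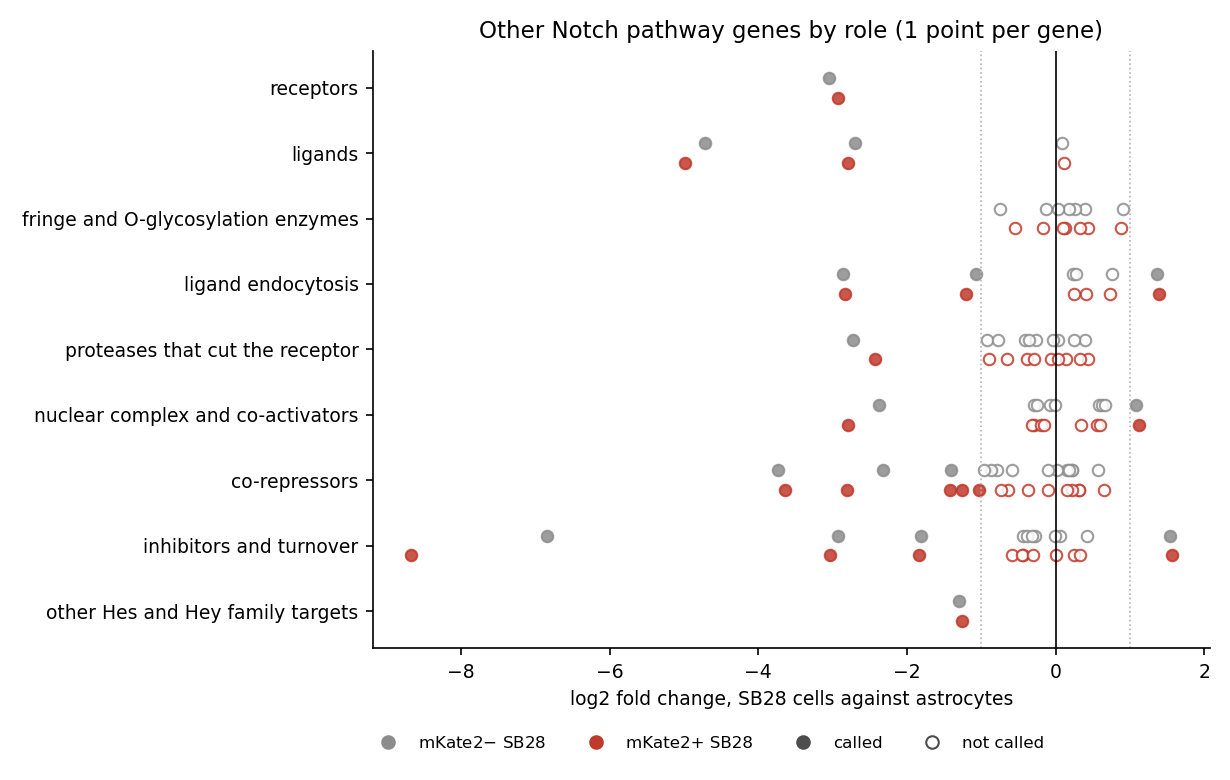
Log2 fold change (x axis) of the tested genes of the wider Notch list against astrocytes, by role (y axis), with 1 point per gene for mKate2- (gray) and mKate2+ (red) SB28 cells. Filled points passed the thresholds, and dotted lines mark -1 and 1. Most processing enzymes and nuclear factors lie within the dotted lines, and the called genes lie mostly to the left.

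The other Hes and Hey genes differed in which astrocyte library was the highest. Hes6, which opposes Hes1 in neural precursors, was at 67.7, 65.2 and 42.3 CPM in astrocytes and 19.0 to 28.4 CPM in SB28 cells, with log2 fold changes of -1.30 ± 0.20 and -1.26 ± 0.25 (edgeR, adjusted p = 0.000853 and 0.00347). It was the 1 gene of this role that passed the filter, and astrocyte replicate 3 was its lowest astrocyte library. Heyl and Hey2 were at 0 in astrocyte replicates 1 and 2 and at 2.48 and 1.91 CPM in replicate 3. In SB28 cells Heyl had no count and Hey2 5 in mKate2- and 1 in mKate2+ libraries. Hes7 was at 0.327, 0.825 and 0.882 CPM. Of the 9 Hes and Hey genes listed, 6 were thus highest in astrocyte replicate 3 (Hes1, Hes5, Hes7, Hey1, Hey2 and Heyl), where 38.9% of the 13450 genes that passed the filter were. Of the 9, 3 passed it (Hes1, Hey1 and Hes6). In replicate 3, 4 exceeded 2 times the mean of the other 2 libraries, with Hey1 at 2.85 times, Hes5 at 5.93 times, and Hey2 and Heyl against a mean of 0. Only Hey1 of these 4 was among the 13450 genes that passed the filter for all 9 libraries, of which 6.21% exceeded 2 times that mean.

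**Figure D5:**
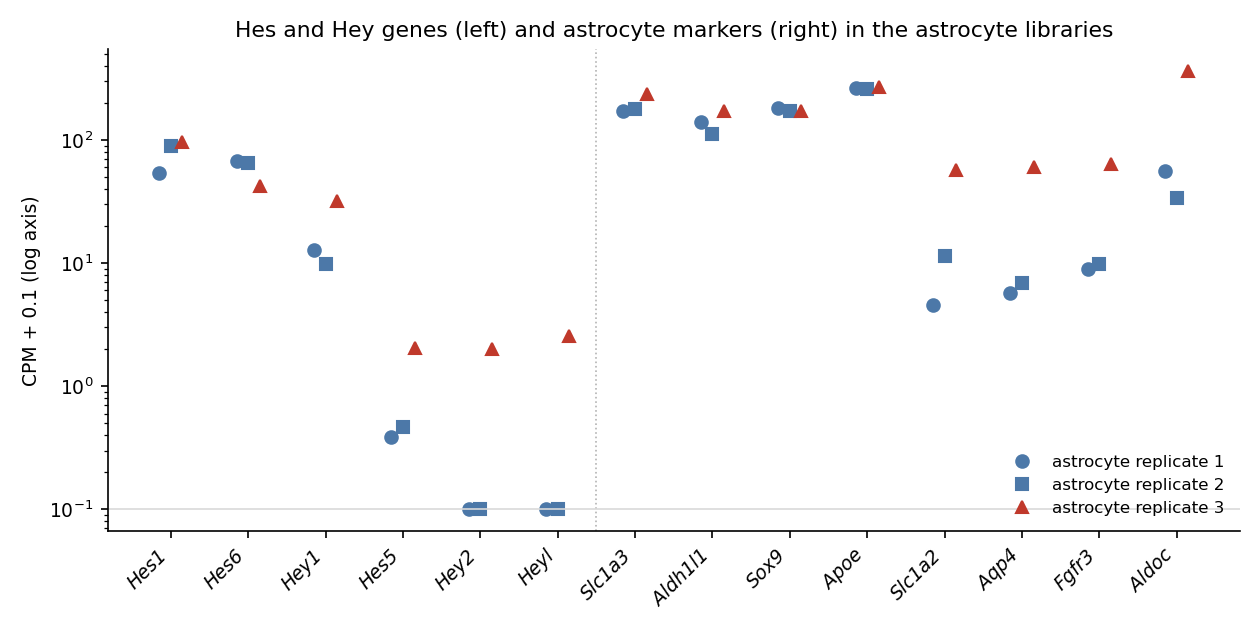
CPM plus 0.1 (y axis, log scale) of 6 Hes and Hey genes and 8 astrocyte markers in the 3 astrocyte libraries, with replicate 3 as red triangles. Replicate 3 lies above the others for Hey1, Hes5, Hey2 and Heyl and for Slc1a2, Aqp4, Fgfr3 and Aldoc, and near them for Slc1a3, Aldh1l1, Sox9 and Apoe.

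Between mKate2+ and mKate2- cells, 0 of the 58 tested genes of the wider list met the criteria. At an unadjusted p below 0.05, which 2.03% of all 11854 genes met, there were 3, with lower values in mKate2+ cells, namely Maml2 (log2 fold change -0.43 ± 0.16), Spen (-0.40 ± 0.15) and Ncor1 (-0.27 ± 0.11), and each had an adjusted p of 0.923 in edgeR's test. These 3 were named after their values were seen. The median of the list was -0.03. Spen was at 56.5, 46.8 and 55.3 CPM in mKate2- and 40.5, 29.2 and 47.1 CPM in mKate2+ cells, and mKate2+ replicate 2 was its lowest library, as it was for Maml2 and Ncor1. Without that library the log2 fold changes were -0.40 for Maml2, -0.27 for Spen and -0.16 for Ncor1 (edgeR, unadjusted p = 0.0479, 0.0344 and 0.0414). All 3 exceeded 0.05 without mKate2- replicate 3 (edgeR, unadjusted p = 0.0859, 0.0802 and 0.0954). They also did in the fit to all 9 libraries (edgeR, unadjusted p = 0.0579, 0.0682 and 0.145). Leaving out some other libraries moved part of the 3 past 0.05, whereas DESeq2 and the replicate block kept all 3 under it.

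Some Notch genes share exonic bases with other annotated genes, and the strand setting of the counting is not given in the sources used here. 0610009E02Rik shares 1068 bases with Notch1 on the opposite strand, A930024N18Rik 867 with Dll1, Gm17276 488 with Notch3 and Gm20421 433 with Hes5, and Gm42820 shares 541 with Notch2 on the same strand. Their mean levels did not exceed 0.6002 CPM in any group. For Hes5 and Dll1, which are themselves low, reads of the partner cannot be told apart from the gene's own.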

How the data were processed

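RNA-seq was analysed in 9 libraries. The deposited values are the authors' raw counts of reads per gene, with no normalization. Per the submitters' processing notes, reads were trimmed with Trimmomatic 0.36, mapped to GRCm38 with STAR 2.5.2b and counted with featureCounts of Subread 1.5.2. The sort gates in the labels assign the CellTrace Violet dye to tumor cells and the study's methods to astrocytes, so groups follow the library titles. Gene names and exonic lengths came from GENCODE M21, which named 49056 of 49315 identifiers.

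Each comparison used its 6 libraries, genes above 1 CPM in at least 2, TMM factors and edgeR 4.0.16's quasi-likelihood test (R 4.3.3) with Benjamini-Hochberg adjustment over all genes. DESeq2 1.42.0, other filters and fits and leaving out each library were alternatives. CPM used the total count, except in the correlations, where TMM factors were applied, and RPKM the union of exons. Intervals of counts are exact and cover counting error only. The study gives the replicates as distinct co-cultures, and p-values measure the spread between them. On simulated counts of mKate2- cells and astrocytes the fit was tested with known changes, and no result given here rests on that. Named genes are mostly the 9 Notch genes, marker genes, the genes closest in pattern and at most 2 called genes per role and direction. Others were named outside that rule, among them Rbpj, Dtx3, Tle4, Hes7, Hey2, Heyl, Spen and Ncor1. The members and lists were chosen with earlier results of these data known. The mKate2 transgene was not analysed here.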

Additional observations from a re-analysis of the deposited data

How the results depend on the processing

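Notch1, Notch3, Jag1 and Dner stayed lower in SB28 cells, past the thresholds, under every alternative run against astrocytes. Removing a trend of log2 CPM on gene length moved the median log2 fold change of all genes to 0.45 (mKate2- cells) and 0.47 (mKate2+ cells) and the share of higher genes among those called from 33.8% and 35.0% to 59.7% and 61.3%. Under it 1 and 2 Notch genes were called higher (Dll1 at 1.22 and 1.23 in the respective comparisons, Notch2 at 1.06 in mKate2+ cells), Hes1 was at -0.96 and -0.94 and Hey1 at -0.81 and -0.66, all 4 uncalled, and 9 and 10 genes of the wider list were called higher and 11 and 11 lower, with Hes6 (-0.80 and -0.85), Mib2 (-0.62 and -0.73) and Tle3 uncalled in both comparisons and Spen and Tle4 in mKate2+ cells. Relative to the shifted medians, Dll1 was at 0.78 and 0.76, Notch2 at 0.47 and 0.59, Hes1 at -1.40 and -1.41 and Hey1 at -1.25 and -1.13. A form that removes only the trend's shape and leaves the level to TMM was added after seeing the data, and it gave 6 and 5 Notch genes lower, 0 higher and medians of -0.04 and -0.01. Without the filter on low counts the medians were -0.21 and -0.19. Hes5, tested only without the filter, was called lower against astrocytes in both groups.

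Between mKate2+ and mKate2- cells no alternative called a Notch gene, while the count of all genes called went from 43 to 83 with DESeq2 and 259 (224 higher, 35 lower) without the filter. A fit to all 9 libraries gave 41 higher and 12 lower. Signs turned for Notch1 (0.0114 with the length trend removed and 0.0119 with its shape removed) and Hes1 (-0.0257 and -0.0208). Leaving out 1 library gave 22 (6 higher, 16 lower, without mKate2+ replicate 2) to 380 (310 higher, 70 lower, without mKate2+ replicate 1) genes called, 0 to 1 genes of the wider list lower (Tle2, without mKate2+ replicate 3), and log2 fold changes of -0.32 to 0.12 for Notch1, -0.0328 to 0.0893 for Notch2, -0.22 to 0.23 for Dll1, -0.21 to 0.37 for Hes1 and -0.17 to 0.45 for Hey1. Against astrocytes it gave 5 to 6 Notch genes lower in each SB28 group and 1 to 3 genes of the wider list higher in mKate2+ cells. The cause of these changes was not tested.

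With the replicate number as a block, 6, 5 and 0 Notch genes were called in the 3 comparisons and 4562, 4598 and 46 genes in all. Same-numbered libraries correlated in their deviations at -0.058 to 0.330 between the SB28 groups and at -0.216 to 0.263 against astrocytes. Not every pair of equal number exceeded 0.1, and not every library correlated best with its own number. Whether equal numbers mark 1 co-culture is not settled by these values. The study's methods describe no block, so the fit without the block was the main one. Hes5, with 0 and 1 counts in the SB28 groups, was tested between them only without the filter (edgeR, unadjusted p = 0.403), and a difference was not detectable at this depth.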
